A study of Drosophila melanogaster with 6 samples.

Results

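Reverse transcription stopped at a T within coding sequence at 3646 of the 22917 truncation sites that miCLIP listed for S2R+ cells. S2R+ is a cultured Drosophila melanogaster line. The members are all rows of the authors' truncation list labelled coding whose truncated base is T, which stands for U in the RNA, so neither the part of the mRNA nor the base is a result. The rule used no peak height, number of immunoprecipitations (IPs), position within the gene or neighbouring site. The members lie in 1530 genes by the authors' names, and all 3646 positions fall on coding sequence of the Ensembl annotation in dm6 coordinates.

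N6-methyladenosine (m6A) is a modification of A within mRNA, written by a nuclear methyltransferase complex and bound by proteins with a YTH domain. miCLIP crosslinks an m6A antibody onto RNA fragments by UV light, and the peptide left on the RNA makes reverse transcription stop nearby or misread a neighbouring C as T. In animals the methylated A is mostly followed by C. UV light also crosslinks proteins to U readily, and a stop at U is not in itself a methylated base.

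The study made 4 replicate IPs with an m6A antibody, 1 non-crosslinked IP control with the same antibody, plus 1 fragmented mRNA input control without antibody. All 6 used mRNA that was selected on oligo(dT) beads from S2R+ cells grown at room temperature, with no treatment or stated genetic change. The controls are not analysed here. Each site is shared by 2, 3 or 4 of the IPs and carries values combined over them, so no value has an SD or n and no test was made. Intervals are Wilson 95% intervals, which count each site as independent of others in its gene and cover counting error only. Read depth at truncation sites is not known from the list, and neither is the abundance of each mRNA. The genome sequence was not used here, so the bases around a site and the base composition of coding sequence are unknown. Haemocyte markers are genes of the blood cell lineage from which the line derives. Of 14 such markers, 7 carried a member (LanA, crq, SPARC, LanB2, Pxn, ush and LanB1), beside 10.9% of all nuclear protein-coding genes. LanA, LanB1, LanB2, SPARC and Pxn are also counted as matrix genes below. The markers srp, Hml, Ppn, Col4a1, vkg, NimC1 and eater carried no member. None of 5 neuronal, 5 muscle, 4 germ line and 5 fat body markers carried one either.

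T was the base at 41.3% of the 8837 coding truncations (40.2% to 42.3%), ahead of A with 3294 sites (37.3%), G with 1050 (11.9%) and C with 847 (9.58%). Among sites in all 4 IPs A was ahead, with 804 against 715 at T. With all 3 aligners the counts were nearly equal, 1966 at T and 1994 at A. Nearly as many T truncations lay in coding sequence as in all other places together, at 49.0% of 7437. This share was 49.3% for truncations at C, 56.3% at G and 27.7% at A. Outside coding sequence, 1589 T truncations were labelled 5' UTR and 1471 3' UTR. The members were spread over many genes: 814 genes had 1 member and 28 had 10 or more, and 284 genes held 50% of all members. The mean was 2.38 members per gene, against 1.94 coding sites at A per gene with such a site.

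Most members were supported by few IPs. Of the 3646, 1908 (52.3%) were shared by 2 IPs, 1023 (28.1%) by 3 and 715 (19.6%, interval 18.4% to 20.9%) by all 4. The share in all 4 IPs was 24.4% for coding A, 25.5% for coding G, 18.7% for coding C, 17.5% for T in 5' UTRs and 17.9% for T in 3' UTRs. All 3 aligners found 53.9% of the members and 60.5% of the coding sites at A.

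Peak height, the height that the CLIP analysis toolkit CTK gives to a truncation peak, ran from 4.5 to 288.8 over the members, with a median of 12.7 and quartiles of 9.5 and 18.5. The medians at other bases in coding sequence were 12.7 at A, 12.7 at G and 14 at C, so those at A and G equalled that of the members to the digits printed. The median was higher for T in 5' UTRs (15.1) and in 3' UTRs (14.5). CTK also gives a null height, the height it expects by chance. This had a median of 0.933 at the members and 0.756 at coding A, and the height was a median of 13.9 times the null at the members and 16.8 times at coding A. Median height was 10.8 at members in 2 IPs, 13.6 in 3 and 19.7 in 4. The sources used here do not say how heights of several IPs were combined.

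**Figure D1:**
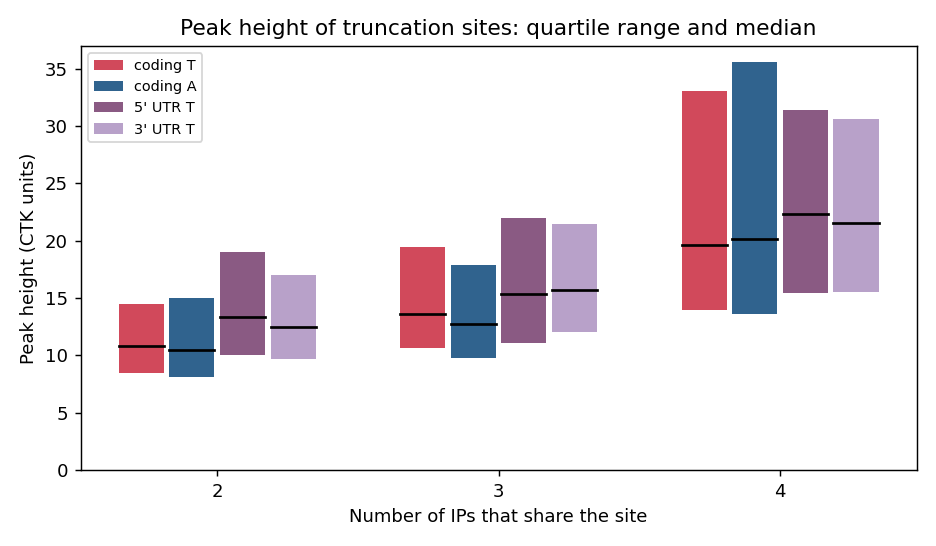
Peak height in CTK units on the vertical axis against the number of IPs that share a site, for T and A truncations in coding sequence and T truncations in both UTRs, with boxes for the quartiles and black lines for medians. Medians for coding T go from 10.8 to 19.7, close to those for coding A (10.5 to 20.1).

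Members were not spread evenly over the codon. Of the 3569 members on nuclear genes, 52.6% were the first base of a codon (51% to 54.2%), 15% the second (13.8% to 16.2%) and 32.4% the third (30.9% to 34%). Coding sites at A were also mostly at the first base (54.4%) but more often at the second (28.3%) than at the third (17.4%). Sites at G had 58.7% at the first base, and sites at C 63.5% at the third. The second base had the smallest share at G (16%) and C (10.7%) as well. Since the number of T, A, G and C at each codon position was not available, the shares are not corrected for how often each base occurs there.

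The layout recurred across subsets of the members. First-base shares of nuclear members were 49.4% in 2 IPs, 57.1% in 3 and 54.9% in 4, and the second-base share was 16.6%, 13.6% and 12.3%. Taking only the tallest site of each nuclear gene gave 52.5% at the first base and 15.9% at the second. Outside genes of cytosolic ribosomal proteins and elongation factors, 3298 nuclear members had 51.8% at the first base. Median height was 13 at the first base, 11.7 at the second and 12.3 at the third. Single genes varied: among 63 nuclear genes with 8 or more members, the first-base share ran from 12.5% to 100% with a median of 50%. All 27 truncations at T that the authors labelled stop codon were the first base of an annotated stop codon. Since a stop codon has T at its first base only, this checks coordinates at the coding end and not the frame of the members.

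**Figure D2:**
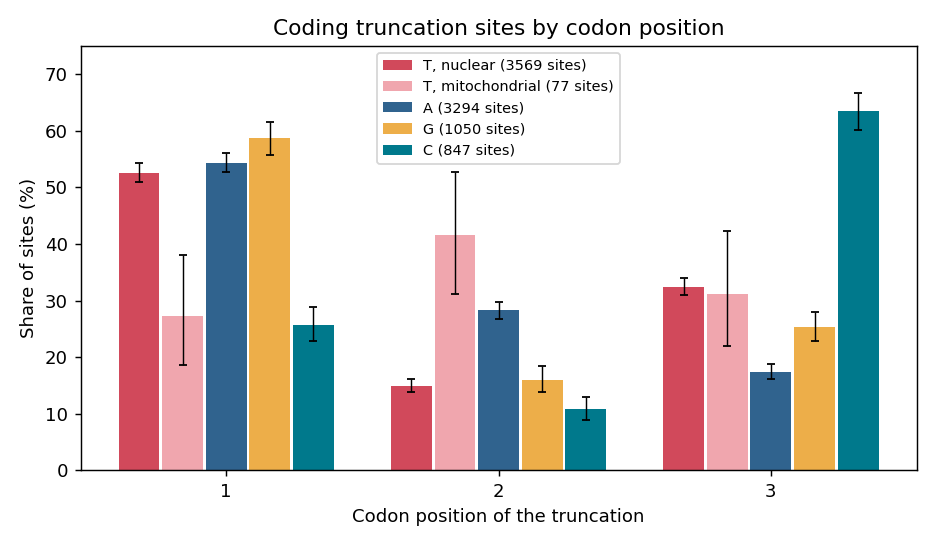
Share of coding truncation sites, in percent, at codon positions 1, 2 and 3, by base, with members of nuclear and mitochondrial genes apart and Wilson 95% intervals as whiskers. Nuclear T sites stand at 52.6%, 15% and 32.4%, and mitochondrial T sites are highest at position 2.

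The 77 members on 10 mitochondrial genes differed from the nuclear ones in both respects. They were at the first base in 27.3% (18.6% to 38.1%), the second in 41.6% (31.2% to 52.7%) and the third in 31.2%, and their median height was 41.3 against 12.5 for nuclear members. Their null height was also higher, with a median of 8.49 against 0.905, and the height over the null was lower, 5.01 against 14.1. The genes of cytochrome c oxidase subunit mt:CoI (22 members, heights 29.0 to 123.3) and of cytochrome b, mt:Cyt-b (14 members, 35.0 to 90.5), were the richest of them among the 15 genes with most members.

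Along the coding sequence, nuclear members were spread evenly. With the coding length cut into 10 equal parts, each part held 9.11% to 10.4% of them, with 10.3% in the first and 9.67% in the last. Coding sites at A had 16.6% in the first part, 11.1% in the second and 8.31% to 9.79% in each later one. Sites at G had 10.2% in the first part and 10.4% in the last, and sites at C 11.7% and 8.09%. The first part thus stood out most at A. Members lay a median of 672 nt from the start codon, and 3.92% lay within 50 nt of the coding end. They were a median of 127 nt from the nearest exon junction, 4.31% lay within 10 nt of one, and 32.9% were in the last exon. All members but 1 were coding in every annotated isoform that covers them.

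Runs of neighbouring members were rare. With gaps of up to 10 nt joined, 80 members (2.19%, 1.77% to 2.72%) formed 40 runs in 39 genes, and every run was a pair. Of these pairs 10 were at adjacent bases, 7 were 2 nt apart and 12 were 3 nt apart, with 11 at gaps of 4 to 9 nt. Pairs became more frequent again farther out: over neighbouring members of the same nuclear transcript, 15 gaps measured 11 to 20 nt, 60 measured 21 to 30 nt, 112 measured 31 to 40 nt and 103 measured 41 to 50 nt of coding sequence. The median gap was 172 nt. Neighbours were at the same codon position in 43.2% of 2040 gaps, where the shares of the 3 positions alone give 40.4%. Close neighbours were also scarce at other bases. A listed truncation at the same base, coding or not, lay within 10 nt of 2.25% of members, 3.04% of coding sites at A, 2.1% at G and 0.945% at C. Within 25 nt the shares were 4.31%, 4.43%, 2.86% and 2.24% in this order. Within 50 nt they were 17.6%, 15%, 6.48% and 6.38%. Such shares grow with the distance at any base. At each base they grew more from 25 to 50 nt, a wider span, than from 10 to 25 nt. Gaps between neighbours were counted for T only, so whether their rise farther out is particular to T was not tested.

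The tallest run was in RpLP0, the gene of the ribosomal stalk protein P0, at chromosome 3L, 22076769 and 22076770 on the plus strand, with heights of 122.0 and 97.9. It was followed by bic (chromosome 2R, 12870798 and 12870799, plus strand, heights 81.7 and 50.3) and LanA (chromosome 3L, 6217730 and 6217731, minus strand, 55.5 and 44.3). The taller site in RpLP0 and the taller site in LanA were each found by 1 aligner and in 2 IPs. Both bic sites were in 3 IPs. These 3 were named after their heights were seen. Since all runs have the same length, the 8 named by the fixed rule are the first by symbol: Act42A, CG15027, CG15083, CG30022, CG9372, CycK, Desat1 and EMC4, with heights from 6.5 in CG15027 to 41.8 in Act42A. Act42A has near-identical actin copies, and the placing of reads that fit several copies is not known from the sources, so its counts are uncertain, as are those of the other actins and of the tubulins. Non1 was the only gene with 2 runs, and each of these had a site found by 1 aligner only.

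Other listed sites were seldom close. A truncation at A lay within 3 nt of 1.45% of the members, against 2.34% of the coding sites at A, 3.33% at G and 5.31% at C. A C-to-T site lay within 3 nt of 2.47% of the members (2.01% to 3.02%), against 6.65% of the coding sites at A, 3.05% at G and 7.44% at C. Among members in all 4 IPs the C-to-T share was 7.13%. The C-to-T sites near members had a preferred place: 59 stood exactly 2 nt downstream, against at most 15 at any other distance up to 10 nt on either side. Among these 59 members, in 51 genes, 49 (83.1%, 71.5% to 90.5%) were the first base of their codon. In those cases the T and the converted C are the first and the third base of the same codon, a layout shared by codons for phenylalanine, serine, tyrosine and cysteine. Coding truncations at C were at the third base in 63.5%. First-base shares of members were 60% in large-subunit and small-subunit ribosomal protein genes and 69.2% in elongation factor genes. The codon positions of all coding C-to-T sites are not given here, so the layout cannot be called particular to these pairs.

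Members with such a C were tall and well supported. Their median height was 46.3 (quartiles 30.2 and 78.1), and 34 of the 59 (57.6%) were in all 4 IPs, against 19.6% of all members. Genes of cytosolic ribosomal proteins and cytosolic elongation factors held 37 of the 59, but 271 of all 3646 members (7.43%). C-to-T sites were themselves frequent in such genes, for example 110 in eEF1alpha1, 79 in eEF2 and 41 in RpL5 of 6225 listed. The share of these genes among all C-to-T sites was not set beside the 37. Neither the excess nor the height can therefore be called particular to these pairs. The C was converted in a median of 2.4% of tags, close to the 2.02% over all 1569 C-to-T sites labelled coding, of which these 59 were 3.76%. The tallest were in RpL23A, a large-subunit ribosomal protein gene (T at chromosome 3L, 1667387, minus strand, codon 265, height 169.5, C at 1667385 with 1.5% of 757.1 tags), eEF1alpha1 (T at chromosome 2R, 11894058, plus strand, codon 162, height 158.5) and RpL5 (T at chromosome 2L, 22536027, minus strand, codon 99, height 155.8, with 3.77% of 761.9 tags converted at 22536025). The RpL23A and RpL5 members were in 4 IPs and found by 3 aligners. That of eEF1alpha1 was in 2 IPs and found by 1 aligner.

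**Figure D3:**
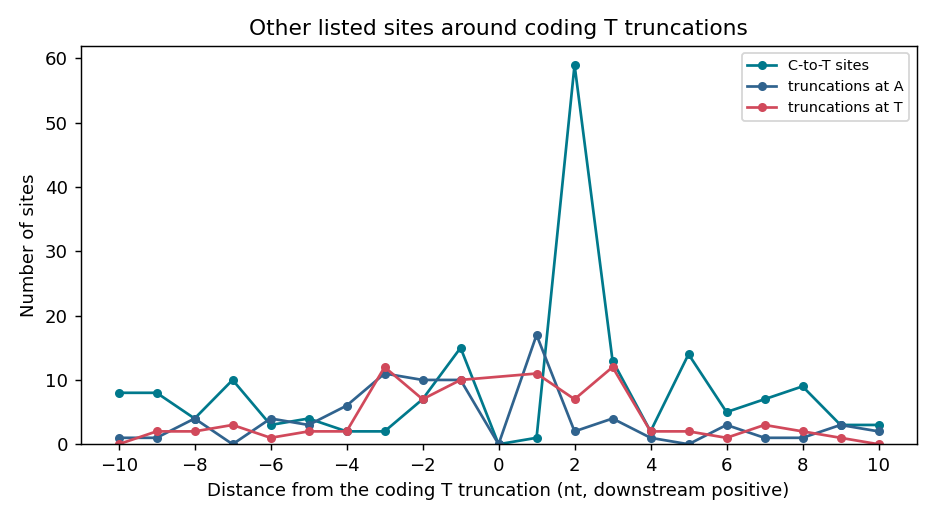
Number of C-to-T sites, truncations at A and truncations at T at each distance from a coding T truncation, in nt along the mRNA with downstream positive. The count of C-to-T sites reaches 59 at 2 nt downstream, and truncations at A and T stay at 17 or fewer; the members themselves at distance 0 are not drawn.

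Among genes, LanA, which encodes the alpha chain of laminin in basement membranes, had the most members, 41, with heights of 11 to 55.5 (median 16.9) and 10 of them in all 4 IPs. Its coding sequence also held 23 truncations at A. The translocase gene eEF2, which moves the ribosome along the mRNA, had 23 members with heights of 46.3 to 191.2, and 16 of them were first bases of codons and 1 a second base. Per length of coding sequence eEF2 had 9.07 members per kb and LanA 3.68. GCS2alpha, the gene of a glucosidase that trims glycans in the endoplasmic reticulum (ER), had 22 members (7.93 per kb), nocte, a gene of clock entrainment by temperature, 22 (3.17 per kb), and SREBP, the regulator of lipid synthesis, 20 (5.98 per kb).

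Gp210, a membrane nucleoporin gene, had 17 members with heights of 8.5 to 22.1. ERp60, a protein disulfide isomerase gene, had 16 at 10.9 per kb and heights of 18.5 to 39.3. Gp93, the ER form of Hsp90, had 14 (17.5 to 62.5), and 11 of these were first bases of codons and none a second. The nucleolar GTPase gene Non1 had 16 and arm, which encodes beta-catenin, 16. Chc, clathrin heavy chain, Sap-r, a saposin precursor, and Uba1, the ubiquitin-activating enzyme, had 13 each. Members outnumbered coding sites at A in all 15 genes, by 16 to 4 in arm, 13 to 2 in Uba1 and 13 to 11 in Sap-r, in a ranking that used the number of members.

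**Figure D4:**
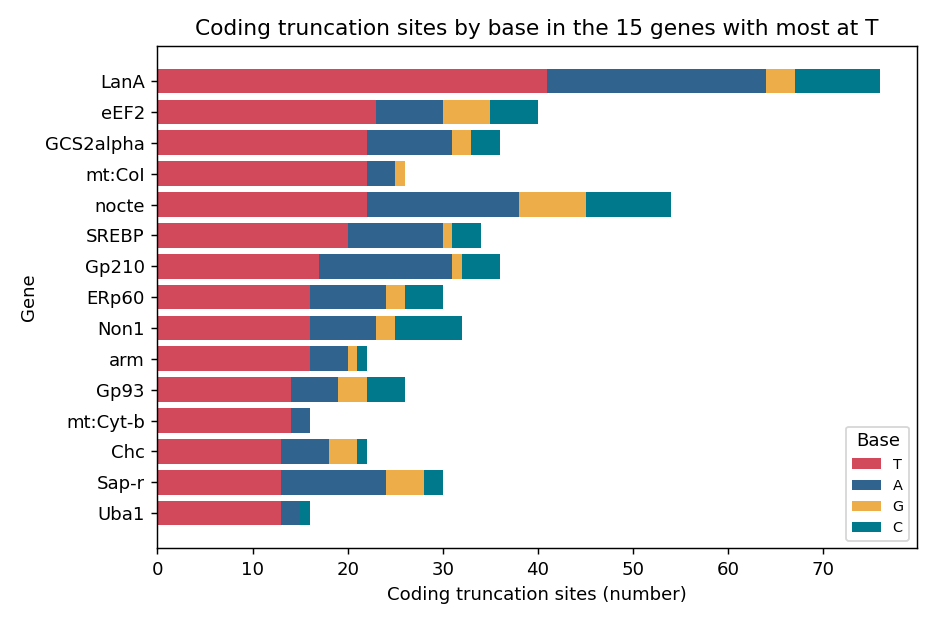
Number of coding truncation sites at T, A, G and C in the 15 genes with the most at T, stacked. LanA leads with 41 at T and 23 at A, and the red bar of T sites is longer than the blue bar of A sites in each gene.

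The tallest members were in genes of translation. RpL5, the large-subunit protein that carries 5S rRNA, had the tallest, at chromosome 2L, 22536324 (minus strand, exon 2 of 4, first base of codon 20, height 288.8), although 2 IPs shared it. RpL5 also had members of 201.3 (22535726) and 196.1 (22534904), each in 4 IPs. RpL23 had 254.1 (chromosome 2R, 22855462, plus strand, exon 4 of 4, codon 81) and RpL21 197.3 (chromosome 2L, 22247662, minus strand, exon 2 of 2). eEF2 had 191.2 (chromosome 2L, 21678907, minus strand, exon 5 of 5, codon 647), and eEF1alpha1, which brings tRNA to the ribosome, 173.3 and 171.0 (chromosome 2R, 11893659 and 11893866, plus strand, both in exon 2 of 2). All 6 members of RpL5 stood without a coding truncation at A. The tallest member outside translation genes, named after its value was seen, was in the transcription factor gene vri (chromosome 2L, 5306064, plus strand, exon 1 of 3, first base of codon 14, height 157.9, 4 IPs).

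Gene lists show how far members reached into each function. Of 13973 nuclear protein-coding genes, 3899 had a truncation site and 1520 (10.9%) a member, with a median height of 12.5 over the members. An mRNA must be expressed to be listed, so these shares mix expression with truncation. Large-subunit ribosomal proteins had members in 44 of 54 genes (125 members, median height 46.3), led by RpL4 and RpLP0 with 8 each, RpL9 with 7 and RpL35A with 6. Small-subunit proteins had them in 31 of 39 (95 members, median 43.7), among them RpS5a with 8 and RpS9 with 6. Elongation factors had them in 7 of 12 genes with the highest median of these lists, 57.2, among them eEF1alpha1 (10), eEF1gamma (8) and eEF5 (7). Initiation factors had them in 26 of 44 (97 members, median 17.6), led by eIF3c (12), eIF4A (10), eIF3a (9) and eIF3b (8). T was the base of 30.9% (26.6% to 35.5%) of the 405 coding truncations in large-subunit genes, with 151 sites at A, against 41% in all nuclear protein-coding genes and 38.8% in small-subunit genes.

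Chaperones and ER folding factors had members in 19 of 29 genes (116 members, median 21.1), with ERp60 and Gp93 ahead of Calr, calreticulin (10 members, 29.0 to 72.7), and Hsc70-4 (9). Secretory pathway genes had them in 9 of 13, led by Sar1 (6) and Sec13 (5), which build COPII vesicles. Aminoacyl-tRNA synthetases had them in 16 of 33, led by AlaRS (9) and AspRS (5), proteasome subunits in 17 of 32 with at most 3 per gene, and poly(A)-binding and RNP genes in 11 of 20, led by pAbp (13). Nucleolar genes had them in 5 of 11, of which Non1 held 16 of 25. Mitochondrial ribosomal proteins had 18 members in 17 of 73 genes at a median height of 9.17.

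A list of small GTPases, proteins that switch between a GTP-bound and a GDP-bound form, had members in 14 of 30 genes, and T was the base at 64.4% of their 73 coding truncations (52.9% to 74.4%), the highest share of the 25 lists. Examples are Arf1 and Rab1, regulators of membrane traffic, with 7 members each, and Rab10, with 5. Arf1 (median height 18) had no coding truncation at any other base, but 3 sites at A in other parts.

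Actin and its regulators had members in 12 of 20 genes, led by Act42A (9), Arp3 (8), Moe (7) and tsr, cofilin (6). Tubulins had them in 4 of 9, led by alphaTub84B (5), and both 14-3-3 genes had 5. Matrix genes had them in 5 of 10, where LanA held 41 of 52 members and SPARC the tallest (78.7). Glycolytic enzymes had them in 7 of 12, led by PyK (6), and nuclear oxidative phosphorylation genes in 26 of 88, led by blw (6). Mitochondrial carriers and enzymes had them in 7 of 9, led by sesB, the ADP/ATP carrier (7), and histone variants in 2 of 5.

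Axon growth and guidance genes had 18 members in 7 of 24, with a median height of 10.8, led by Abl (5), trio (4) and shot (3). Notch pathway genes had 5 members in 2 of 16 (Nct and kuz) and Hippo genes 3 in 2 of 14 (kibra and Rassf), shares of genes of 12.5% and 14.3% beside the 10.9% of all nuclear protein-coding genes. Among genes with any truncation site, the counts were 7 of 17 for axon genes, 2 of 11 for Notch and 2 of 10 for Hippo. For the m6A genes given below the count was 2 of 7. The shares of Notch, Hippo and m6A genes, each from few genes, are lower than the 1520 of 3899 for all such nuclear genes. That of axon genes is close to it. Insulin and TOR genes had none in 13, of which 10 had a truncation site. Of 11 m6A genes, a list that includes Fmr1, 2 had members. Fmr1, the translational regulator named in the study's title, had 5 on chromosome 3R, minus strand: 10104532 (height 9.0, 2 IPs), 10104615 (21.3, 4 IPs), 10105499 (6.0, 2 IPs), 10105846 (9.67, 3 IPs) and 10105958 (12.5, 2 IPs). The site at 10104615, in exon 10 of 12, was thus the tallest and the only one in all 4 IPs. The writer complex gene fl(2)d had 1, at chromosome 2R, 13820452, in exon 4 of 4 (height 9.75, 2 IPs). Neither reader gene, Ythdf or Ythdc1, had a member.

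A site at A was missing from a part of these genes. Of the 1530 genes with a member, 358 (23.4%, 21.3% to 25.6%) had no truncation at A anywhere in the list, and 639 (41.8%) had none in coding sequence. With members in all 4 IPs only, 12.9% of 451 genes had no truncation at A. In reverse, 34.5% of the 1694 genes with a coding site at A had no truncation at T. This share and the 23.4% are not like for like, since the whole list holds 11897 truncations at A and 7437 at T. Genes lacked A mostly where they had few sites. The share was 34% of genes with 1 member, 17.4% with 2, 12.6% with 3 or 4, 0.617% with 5 to 9 and none of the 28 with 10 or more.

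Members of genes without a site at A were lower and shared by fewer IPs. These genes held 479 members with a median height of 8.83, against 13.6 in the other genes. Their median null height was 0.37 against 1.08, and 12.9% of their members were in all 4 IPs against 20.6%. A C-to-T site was listed in 13 of the 358 (3.63%), against 629 of the 1172 others (53.7%). In 223 of the 358 (62.3%) the members were the only truncation sites of the gene. Their coding sequences had a median of 1278 nt, against 1572 nt, and the codon layout was close, with 51.4% of members at the first base against 52.2%. The number of members, their height and the length of the gene move together with the lack of A, and their part in it was not tested.

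**Figure D5:**
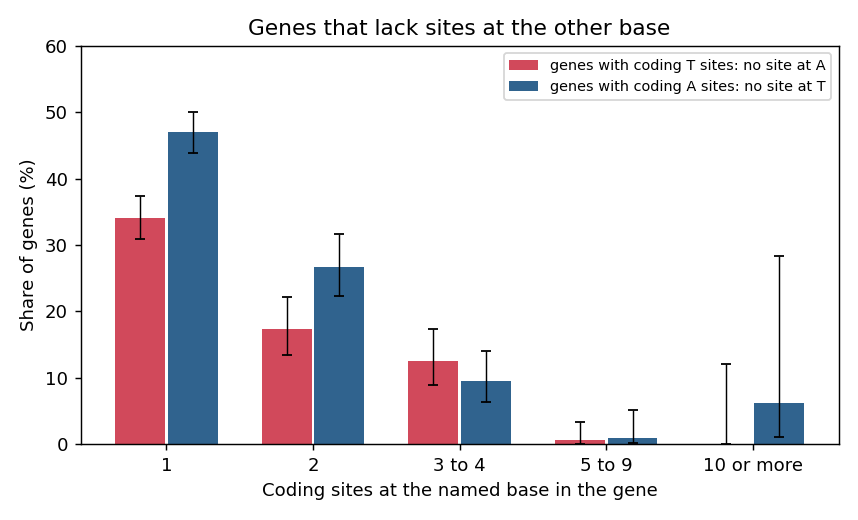
Share of genes, in percent, that have no truncation at A among genes with coding T sites, and no truncation at T among genes with coding A sites, by the number of coding sites at the named base, with Wilson 95% intervals as whiskers. The share falls from 34% at 1 coding T site to 0.617% at 5 to 9. The whole list holds 11897 truncations at A and 7437 at T, so the colours are not like for like.

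The richest of the genes without A was Tctp, a conserved growth-related gene of chromosome 3R (11210247 to 11211898, plus strand). Its 5 members stood at 11210503, 11210557, 11210657, 11210791 and 11210825 with heights of 24.7, 48.9, 51.1, 31.5 and 34, so that the middle of the coding sequence held the tallest, and 3 were in all 4 IPs. Tctp also had 7 C-to-T sites. AP-1mu, a clathrin adaptor subunit gene (chromosome 3R, 9557712 to 9559525, minus strand), had 4 members of 8.67 to 24.5 and no other truncation. CG3651, EMC7 of the ER membrane complex, Hmt-1, Tbcd, a tubulin-folding cofactor, and the ubiquitin ligase gene hyd also had 4 each, with heights of 7.25 to 12.8. ND-MLRQ, a subunit gene of respiratory complex I, had 4 of 16.2 to 29.2 in a coding sequence of 252 nt, 2 of them 3 nt apart. ATP6AP2, CG10638, CG17486 and CG2915 had 3 each, from 8.44 to 21.2.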

How the data were processed

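miCLIP truncation and C-to-T sites came from 2 deposited lists for S2R+ cells. Per the file headers and the deposited column legend, the authors called sites with CTK from Novoalign, STAR and BWA alignments. Per the submitters' processing notes, the build was dm6 and the tools included STAR 2.4.2a, BWA, Novoalign, Bowtie 1.1.2 and cutadapt 1.8; their roles are not stated. The peak height is a score the authors deposited for each aligner, with no depth normalization stated. Heights were averaged across aligners listing a site, and the highest number of IPs was taken. Controls and single replicates are not analysed here.

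Positions are 1-based dm6. Codon positions came from the longest coding sequence of the gene at the site (Ensembl release 115, BDGP6.54). Genes were counted by the authors' names and printed under current symbols, which differ for 315 of 1530. The 25 lists were matched by symbol or synonym, and 5 listed names found no match (Hop, Mettl16, fas, Dl and Tor). Genes were named by fixed rules: the 15 with the most members, the 8 tallest members, 8 runs, the 12 with the most members and no site at A, up to 4 members of each list, and each m6A gene with a member; some of these are not reported here. Members, lists and rules were chosen with earlier results of these data known. On simulated sites the planted codon position was recovered in 3000 of 3000. These sites were planted and placed with the same annotation and rule, so this checks the code and not the placing of real sites. Python 3.11.15, pandas 2.3.3 and scipy 1.17.1 were used.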

Additional observations from a re-analysis of the deposited data

How the results depend on the processing

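Of 40 alternative values, 21 stayed within the counting interval of the reported value or, for counts, within 1.5 times of it. Sites in 4 IPs only gave 451 genes, a T share of coding truncations of 36.8%, a median height of 19.7, 11.6% of members in ribosomal protein genes, 13.1% at the second and 53.8% at the first codon base, 12.9% of genes without A, and 7.13% with a C-to-T site within 3 nt. Sites with all 3 aligners gave 1966 members, a T share of 39.5%, 12.7% at the second codon base and 30.3% of genes without A. Median height was 13.5 with Novoalign, 13.3 with BWA and 12.3 without the 10 genes with the most members. Runs held 1.59% of members with gaps of up to 3 nt and 4.14% with gaps of up to 25 nt. Counting coding A sites only gave 41.8% of genes without A, and a window of 10 nt gave 4.09% with a C-to-T site. The cause of these shifts was not tested. The aligner-specific values, the 3-aligner settings other than the T share, the nuclear-only settings, the first codon base and the 4-IP setting for C-to-T sites were chosen after seeing the data. The mean over aligners and the highest number of IPs, planned as alternatives, became the reported values because each deposited cell holds 3 of them. The planned base directly upstream was not run, since it needs the genome sequence. Leaving out a replicate was not possible with combined values. No paired analysis was possible because the deposited values combine the IPs and no groups were compared. Depth at truncation sites is unknown.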
